A study of Mus musculus with 12 samples.

Results

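The genes described here are 4 fibroblast growth factor (FGF) ligands, Fgf1, Fgf2, Fgf7 and Fgf10, and 3 FGF receptors, Fgfr1, Fgfr2 and Fgfr3. They were chosen by name, and every probe set that the array's annotation gives to them was used, which made 11 probe sets of the 20380 with 1 gene symbol and 7 genes of 12393. Fgf2, Fgf7 and Fgf10 had 1 probe set each, and Fgf1, Fgfr1, Fgfr2 and Fgfr3 had 2 each. RNA was measured on 12 Affymetrix arrays, 3 in each of 4 groups of cultured mouse fibroblasts, GFP+ and GFP- cells of inguinal fat and GFP+ and GFP- cells of epididymal fat. The mice of all groups were males of 6 to 8 weeks that carried the Zfp423-GFP transgene on an FVB and C57BL/6 background. Stromal vascular cells, the part of the tissue left once the fat cells are taken away, were cultured from fat under the skin (inguinal) or in the abdomen (epididymal). They were sorted by green fluorescent protein (GFP), which in these mice reports Zfp423, a transcription factor of preadipocytes, and were then grown again in DMEM/F12 with fetal bovine serum. Cells were harvested while still dividing, before any step toward mature fat cells, and both GFP- groups carry the same transgene as the GFP+ groups. The series set out to find genes that mark the preadipocyte fibroblasts of each depot. Whether the 3 replicates of a group were separate animals or cultures is not in the labels, and the p-values therefore rest on the spread between these arrays alone, which may be technical.

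FGFs are secreted proteins that bind receptor tyrosine kinases together with heparan sulfate, a sugar chain on cell-surface proteoglycans. The bound receptor signals through the Ras and MAP kinase cascade and the PI3 kinase pathway, and that signal raises its own inhibitors, among them the Sprouty proteins and the phosphatase Dusp6. Fgf7 and Fgf10 are made by mesenchymal cells and act mainly on the splice form of Fgfr2 that epithelial cells make, while Fgf1 and Fgf2 bind a wider range of receptors. In fat, Fgf10 is known for its need in white fat development, Fgf1 for its role in the remodelling of adult fat, and Fgf2 as a mitogen for fat cell precursors. A probe set measures the summed RNA under its probes and was not used to tell receptor splice forms apart.

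Fgf7, Fgfr2 and Fgf2 differed most between depots in how they followed the GFP sort, so the sequence before the start of each is shown, 5′ to 3′ in the direction of the gene. The sequences are the 250 bases before the start site in RefSeq's promoter table (assembly GRCm38.p6), at chr2:126034408-126034657 (plus strand) for Fgf7, chr3:37348403-37348652 (plus strand) for Fgf2 and chr7:130266809-130267058 (minus strand) for Fgfr2, and the table held an entry for 5 of the 7 genes.
Fgf7: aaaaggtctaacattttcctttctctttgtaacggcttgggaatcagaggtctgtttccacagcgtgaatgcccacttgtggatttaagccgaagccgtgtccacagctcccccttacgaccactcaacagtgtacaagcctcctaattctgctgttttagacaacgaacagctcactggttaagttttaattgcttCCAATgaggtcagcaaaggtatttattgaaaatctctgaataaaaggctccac
Fgf2: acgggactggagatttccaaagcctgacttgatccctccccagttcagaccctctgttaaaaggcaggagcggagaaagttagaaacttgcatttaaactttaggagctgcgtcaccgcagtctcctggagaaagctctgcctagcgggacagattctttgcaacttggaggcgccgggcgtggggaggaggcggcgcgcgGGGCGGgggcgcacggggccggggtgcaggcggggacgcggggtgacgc
Fgfr2: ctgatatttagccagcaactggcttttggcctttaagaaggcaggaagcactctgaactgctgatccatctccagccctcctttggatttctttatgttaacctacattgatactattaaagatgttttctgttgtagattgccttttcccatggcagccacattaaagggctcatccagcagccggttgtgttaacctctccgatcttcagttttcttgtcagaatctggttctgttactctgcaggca
Capitals mark the matches to 4 motifs searched on both strands: the TATA box core TATAAA, the GC box GGGCGG, the CCAAT box CCAAT and the AP-1 site TGANTCA. Fgf7 held 1 CCAAT, beginning 53 bases before the start, a motif that 33.9% of 32841 promoters of this length hold. Fgf2 held 1 GGGCGG, beginning 49 bases before the start, a motif that 32.7% hold. Fgfr2 held none of the 4, and of the others TATAAA occurs in 12.4% of promoters and TGANTCA in 6.75%. The Fgf2 stretch was GC-rich, at 62.4% G and C with 20 CpG, while Fgf7 had 43.6% with 6 CpG and Fgfr2 44% with 2 CpG, against medians of 52.4% and 6 over all promoters. A match is a description of these letters and not a binding site.

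The deposited values are probe set intensities on a linear scale, and differences below are on log2(intensity + 16), which understates the change of dim probe sets. A floor was set on each array as the 95th percentile of 33 probe sets of olfactory receptor genes, which fibroblasts are not known to use, and a group counted as above it when all 3 of its arrays were. The floor lay between 46.5 and 59.3 on the inguinal arrays and between 69.0 and 96.1 on the epididymal arrays. Over all probe sets, arrays of 1 group correlated at 0.9923 to 0.9943 and arrays of different groups at 0.9517 to 0.991, and no 2 arrays were identical. Zfp423 itself followed the sort, at 110 to 151 in inguinal GFP+ against 47.4 to 73.2 in GFP- (log2 difference 0.94 ± 0.18 SE, limma adjusted p = 0.00221), and at 208 to 278 in epididymal GFP+ against 25.8 to 33.4 in GFP- (2.50 ± 0.18, adjusted p = 9.93e-09). In GFP- cells it was above the floor on 1 of 3 inguinal and 0 of 3 epididymal arrays, so with the higher of floor and signal on each GFP- array it was at least 1.98-fold and at least 3.11-fold higher in GFP+ cells. All 10 fibroblast markers were above the floor in every group, with sums of 156578 to 171461 over all groups. Single markers differed: 6 were higher and 2 lower in epididymal GFP+ than GFP- cells, where 41.6% of all genes were called. Among GFP- cells 7 were higher and 3 lower in inguinal than in epididymal cells, against 53.6% of all genes. Of 9 mesothelial markers measured, all 9 were above the floor in both epididymal groups and 2 in both inguinal groups, and their summed intensity was 38831 to 40939 in epididymal GFP-, 7386 to 7647 in epididymal GFP+, 1440 to 1742 in inguinal GFP+ and 1496 to 1654 in inguinal GFP-. Of 12 macrophage and leukocyte markers, 11 were above the floor in inguinal GFP- and 5 to 7 in the other groups, with sums of 10555 to 12416 in inguinal GFP- and 2068 to 3541 elsewhere; C1qa, C1qb, C1qc and Ptprc were above the floor in inguinal GFP- alone. Epithelial markers, which matter here because epithelial cells make the Fgfr2 form that Fgf7 binds, were above the floor for 0 of 6 genes in 3 groups and 1 of 6 in epididymal GFP-. Of 8 endothelial markers, 2 to 3 were above the floor in a group, and the sum was 5403 to 5618 in epididymal GFP- against 411 to 1110 elsewhere. Kdr and Esam made up most of it, at means of 4469 and 825, while Pecam1, Cdh5, Tek, Emcn, Cldn5 and Tie1 were not above the floor there. Cdh5 went the other way, higher in epididymal GFP+ than GFP- cells (1.88 ± 0.22, limma adjusted p = 2.82e-06). Of the 8 endothelial markers, 2 were higher and 2 lower in that comparison. Of 8 mural markers, 5 to 6 were above the floor, with sums of 56040 to 70072 over all groups. The fat cell genes Adipoq, Cidec and Lep were above the floor in no group. Fabp4, which binds fatty acids inside fat cells and preadipocytes, was above it in all 4 and higher in GFP+ cells, at means of 4913 and 1372 in inguinal (1.81 ± 0.09, adjusted p = 2.09e-09) and 6224 and 300.1 in epididymal cells (4.30 ± 0.09, adjusted p = 3.72e-15).

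Fgf7 RNA was high in both inguinal groups, lower in epididymal GFP+ cells and near the floor in epididymal GFP- cells. Its intensity was 4264, 4013 and 4320 in inguinal GFP+ and 3846, 3818 and 3833 in inguinal GFP-. It was 1823, 1702 and 1570 in epididymal GFP+ and 98.5, 85.6 and 87.6 in epididymal GFP-, where 2 of the 3 arrays were above their floor. The 4 groups did not overlap, and the 3 epididymal GFP- arrays stood far below the other 9. In epididymal cells Fgf7 was at least 18.4-fold higher in GFP+ than in GFP- cells, taking the higher of floor and signal on each GFP- array (measured means 1698 and 90.6, log2 difference 4.01 ± 0.06 SE, n = 3 against 3, limma adjusted p = 9.94e-17). In inguinal cells the ratio of means was 1.10 (0.13 ± 0.06, adjusted p = 0.203), a difference that did not pass over all arrays and passed when only the 2 inguinal groups were fitted (adjusted p = 0.0466). The inguinal GFP difference minus the epididymal one was -3.88 ± 0.08 on the log2 scale (adjusted p = 2.37e-14). Between depots, inguinal cells had 2.47 times the intensity of epididymal cells among GFP+ (1.30 ± 0.06, adjusted p = 7.78e-11) and were at least 41.5-fold higher among GFP- (measured means 3832 and 90.6, 5.18 ± 0.06, adjusted p = 3.22e-18). RNA came from whole cultures, so fewer cells of a type and less RNA per cell cannot be told apart. The epididymal GFP- arrays that had the lowest Fgf7 also had the highest mesothelial and endothelial marker sums, the latter mostly from Kdr and Esam. The part of these sums in the result was not tested.

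**Figure D1:**
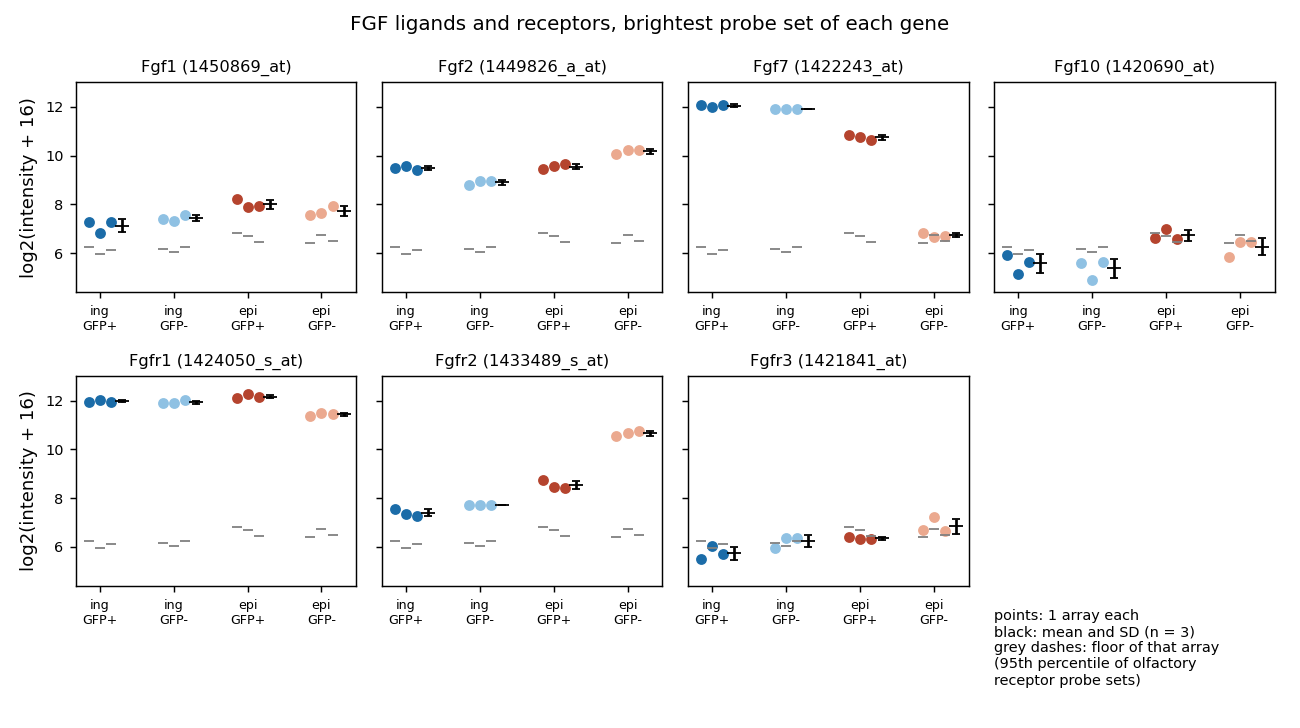
The log2(intensity + 16) of each gene's brightest probe set is shown for every array, by depot (ing, inguinal; epi, epididymal) and GFP fraction, with group mean and SD (n = 3) in black and each array's floor as a grey dash. Fgf7 falls to near the floor in epididymal GFP- alone, Fgfr2 is highest there, and Fgf10 and most Fgfr3 values lie around the floor.

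Fgf2, a ligand without a classical secretion signal, followed the GFP sort in opposite directions in the depots. Inguinal GFP+ arrays read 694, 739 and 661 and inguinal GFP- arrays 428, 475 and 486. Epididymal GFP+ arrays read 673, 747 and 780 and epididymal GFP- arrays 1051, 1174 and 1186. Inguinal GFP- was lowest and epididymal GFP- highest, while the GFP+ groups of both depots overlapped. Fgf2 was higher in GFP+ cells of inguinal fat by 0.58 ± 0.07 on the log2 scale (ratio 1.51, limma adjusted p = 6.62e-05) and lower in GFP+ cells of epididymal fat (log2 difference -0.62 ± 0.07, ratio 0.645, adjusted p = 4.32e-06). These contrasts differed by 1.20 ± 0.10 (adjusted p = 2.1e-07). Between depots Fgf2 was lower in inguinal GFP- than in epididymal GFP- cells (-1.27 ± 0.07, ratio 0.407, adjusted p = 6.06e-10), and among GFP+ cells the difference was -0.07 ± 0.07 (adjusted p = 0.484). The inguinal GFP- group, lowest for Fgf2, was the one with the highest macrophage and leukocyte marker sums. Epididymal GFP- was the one with the highest mesothelial marker sums. The part of these markers in these differences was not tested.

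Fgf1, a ligand that binds all FGF receptors, was dim, and both of its probe sets were lower in inguinal than in epididymal GFP+ cells, while they differed in which other comparisons passed. The brighter one, 1450869_at, read 138, 97.1 and 138 in inguinal GFP+, 154, 144 and 175 in inguinal GFP-, 279, 219 and 226 in epididymal GFP+, and 172, 184 and 229 in epididymal GFP-. The dimmer one, 1423136_at, read 32.2, 52.8 and 91.5 in inguinal GFP+, 22.9, 77.2 and 56.3 in inguinal GFP-, 137, 128 and 91.4 in epididymal GFP+, and 146, 164 and 154 in epididymal GFP-. The first was above the floor on all 12 arrays, and the second on 3 of 6 inguinal and 6 of 6 epididymal arrays. Among GFP+ cells Fgf1 was lower in inguinal fat by both, at -0.88 ± 0.15 (limma adjusted p = 0.00019) and -0.91 ± 0.30 (adjusted p = 0.021), and the groups were apart on the first and overlapped on the second. The second lost that call with quantile normalization (adjusted p = 0.0618) and without a variance trend (0.0559), and also without epididymal GFP+ replicate 1 (0.0749), epididymal GFP+ replicate 2 (0.0656) or inguinal GFP+ replicate 1 (0.114). Among GFP- cells the difference was -0.28 ± 0.15 (adjusted p = 0.148) by 1450869_at and -1.41 ± 0.30 (adjusted p = 0.000946) by 1423136_at. The floor was itself higher on epididymal arrays, and the part of that shift in the depot differences of this dim gene was not tested. Within depots neither probe set passed: GFP+ minus GFP- was -0.32 ± 0.15 (adjusted p = 0.244) in inguinal and 0.29 ± 0.15 (adjusted p = 0.164) in epididymal cells by the brighter probe set. The contrasts differed between depots by -0.60 ± 0.22 at an adjusted p of 0.0456 by that probe set, with the opposite sign by the other (0.50 ± 0.43, adjusted p = 0.439). That call was lost with quantile normalization (0.0808), median centring (0.0658), no variance trend (0.0636) and the mean of both probe sets (-0.05, adjusted p = 0.919). It was also lost without epididymal GFP+ replicate 1 (0.116) or 3 (0.0557), epididymal GFP- replicate 1 (0.105) or 2 (0.0911), inguinal GFP+ replicate 2 (0.110), or inguinal GFP- replicate 1 (0.0722) or 3 (0.111).

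Fgf10, which shares its main receptor form with Fgf7, was above the floor in no group. Inguinal GFP+ arrays read 44.8, 19.7 and 34.1, inguinal GFP- 31.8, 14.1 and 33.1, epididymal GFP+ 81.3, 109 and 80.6, and epididymal GFP- 41.6, 72.0 and 72.1. Of the 12 arrays, 2 of epididymal GFP+ were above their own floor. Fgf10 passed between depots, at -1.15 ± 0.26 among GFP+ (limma adjusted p = 0.00161) and -0.89 ± 0.26 among GFP- cells (adjusted p = 0.0086, and 0.0529 without inguinal GFP- replicate 2). The floor was itself higher on epididymal arrays, and the part of that shift in these differences was not tested. GFP+ minus GFP- was 0.21 ± 0.26 in inguinal (adjusted p = 0.722) and 0.47 ± 0.26 in epididymal cells (adjusted p = 0.177).

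Fgfr2, the gene for the receptor of Fgf7 and Fgf10, ran opposite to Fgf7 over the groups. By 1433489_s_at it read 171, 149 and 138 in inguinal GFP+ and 197, 196 and 196 in inguinal GFP-. It read 412, 332 and 330 in epididymal GFP+ and 1475, 1630 and 1689 in epididymal GFP-. The 4 groups did not overlap, and epididymal GFP- stood highest. The second probe set, 1420847_a_at, read 61.0, 64.6 and 38.3, then 61.1, 88.2 and 56.8, then 117, 139 and 93.4, then 540, 574 and 577 in the same order of groups, with both inguinal groups overlapping and 4 of their 6 arrays above the floor. In epididymal cells Fgfr2 was lower in GFP+ than in GFP- by both, at -2.11 ± 0.10 (ratio 0.224, limma adjusted p = 7.17e-11) and -2.14 ± 0.18 (ratio 0.207, adjusted p = 9.54e-08). In inguinal cells it was -0.34 ± 0.10 (ratio 0.778, adjusted p = 0.043) by the brighter and -0.27 ± 0.18 (adjusted p = 0.455) by the dimmer. The contrasts differed between depots by 1.78 ± 0.14 (adjusted p = 7.11e-08) and 1.88 ± 0.26 (adjusted p = 3.27e-05). Inguinal cells had less Fgfr2 RNA than epididymal cells among GFP+ (-1.14 ± 0.10, ratio 0.427, adjusted p = 1.61e-07) and GFP- (-2.92 ± 0.10, ratio 0.123, adjusted p = 7.88e-13). Fgfr2 was highest in the group with the highest mesothelial marker sums, 38831 to 40939, and the highest endothelial sums, 5403 to 5618. The endothelial sums came mostly from Kdr and Esam, and the part of either list in the result was not tested.

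The inguinal Fgfr2 call was at the edge of the threshold. Its adjusted p was 0.0975 with quantile normalization, 0.0593 with median centring, 0.0666 with a pseudocount of 64, 0.109 with only the inguinal groups fitted, 0.0705 without a variance trend and 0.152 for the mean of both probe sets. It was also lost without any 1 of the 3 epididymal GFP- arrays (0.0504 to 0.0613), any 1 of the 3 inguinal GFP- arrays (0.102 to 0.110), or inguinal GFP+ replicate 2 (0.0808) or 3 (0.155). The sign was negative throughout, and the inguinal groups were apart, with GFP- the brighter.

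**Figure D2:**
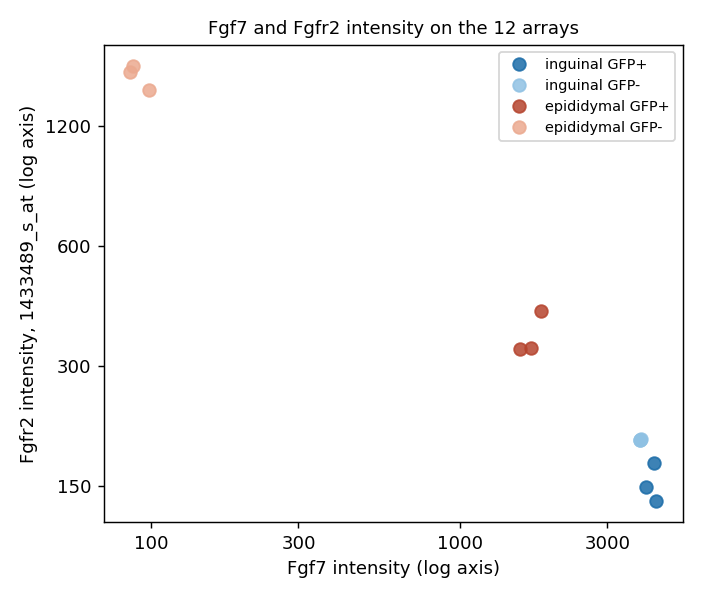
Each point is 1 array, with Fgf7 intensity across and Fgfr2 intensity (1433489_s_at) upward, both on log axes, coloured by group; the 3 inguinal GFP- arrays lie on top of each other. The groups run from high Fgf7 with low Fgfr2 in inguinal cells to Fgf7 of 85.6 to 98.5 with Fgfr2 of 1475 to 1689 in epididymal GFP- cells.

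Fgfr1, the receptor most fibroblasts use, was well above the floor in every group and lowest in epididymal GFP- cells. By 1424050_s_at it read 3911, 4124 and 3965 in inguinal GFP+ and 3791, 3782 and 4106 in GFP- cells, and 4389, 4861 and 4468 in epididymal GFP+ and 2616, 2861 and 2813 in GFP- cells. By 1425911_a_at it read 793, 704 and 710, then 671, 666 and 711, then 680, 655 and 675, then 323, 352 and 322 in that order. On both, the epididymal GFP- arrays lay below all others, and the inguinal groups overlapped. In epididymal cells Fgfr1 was higher in GFP+ by 0.72 ± 0.05 (ratio 1.66, limma adjusted p = 2.92e-09) and 0.98 ± 0.07 (ratio 2.01, adjusted p = 5.74e-09). In inguinal cells the differences were 0.04 ± 0.05 (adjusted p = 0.704) and 0.11 ± 0.07 (adjusted p = 0.402), and the contrasts differed between depots by -0.68 ± 0.07 (adjusted p = 6.07e-07) and -0.87 ± 0.09 (adjusted p = 2.22e-06). Among GFP- cells Fgfr1 was higher in inguinal fat by 0.49 ± 0.05 (adjusted p = 2.01e-07) and 1.00 ± 0.07 (adjusted p = 2.82e-09). Among GFP+ cells the probe sets had opposite signs, -0.19 ± 0.05 (adjusted p = 0.00295) and 0.13 ± 0.07 (adjusted p = 0.122), and their mean did not pass (-0.03, adjusted p = 0.6). The second passed with quantile normalization (0.17, adjusted p = 0.0431) and median centring (0.20, adjusted p = 0.0163), so the direction of Fgfr1 between depots in GFP+ cells depends on the probe set.

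Fgfr3, a receptor known mainly from cartilage and epithelia, was above the floor on all 3 arrays in epididymal GFP- cells alone, and on 1 inguinal GFP+ and 2 inguinal GFP- arrays. By 1421841_at it read 29.0, 49.4 and 36.2 in inguinal GFP+, 46.5, 66.8 and 67.3 in inguinal GFP-, 69.1, 63.4 and 63.6 in epididymal GFP+, and 86.4, 132 and 85.4 in epididymal GFP-. The last group was above its floor and above all other arrays, while the inguinal groups overlapped. In epididymal cells GFP+ minus GFP- was -0.50 ± 0.20, with a limma adjusted p of 0.0597 that passed with quantile normalization (0.041), median centring (0.0472) and a pseudocount of 64 (0.0342). In inguinal cells it was -0.50 ± 0.20 (adjusted p = 0.149), and the difference of the contrasts was 0.01 ± 0.28 (adjusted p = 0.99). Fgfr3 passed between depots at -0.60 ± 0.20 among GFP+ cells (adjusted p = 0.0215) and -0.61 ± 0.20 among GFP- cells (adjusted p = 0.0186), both lost with quantile normalization (0.131 and 0.0556) and when its 2 probe sets were averaged (0.124 and 0.503). The GFP+ groups were above the floor on 1 of 3 inguinal and 0 of 3 epididymal arrays. The floor was itself higher on epididymal arrays, and the part of that shift in both differences was not tested. Among GFP+ cells the call was also lost without epididymal GFP+ replicate 1 (0.0602) or inguinal GFP+ replicate 1 (0.0932) or 3 (0.0523), and among GFP- cells without epididymal GFP- replicate 2 (0.110) or inguinal GFP- replicate 1 (0.0930). Its other probe set, 1425796_a_at, lay between 11.04 and 39.8 on all arrays, under the floor in every group, and passed in none of the comparisons.

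**Figure D3:**
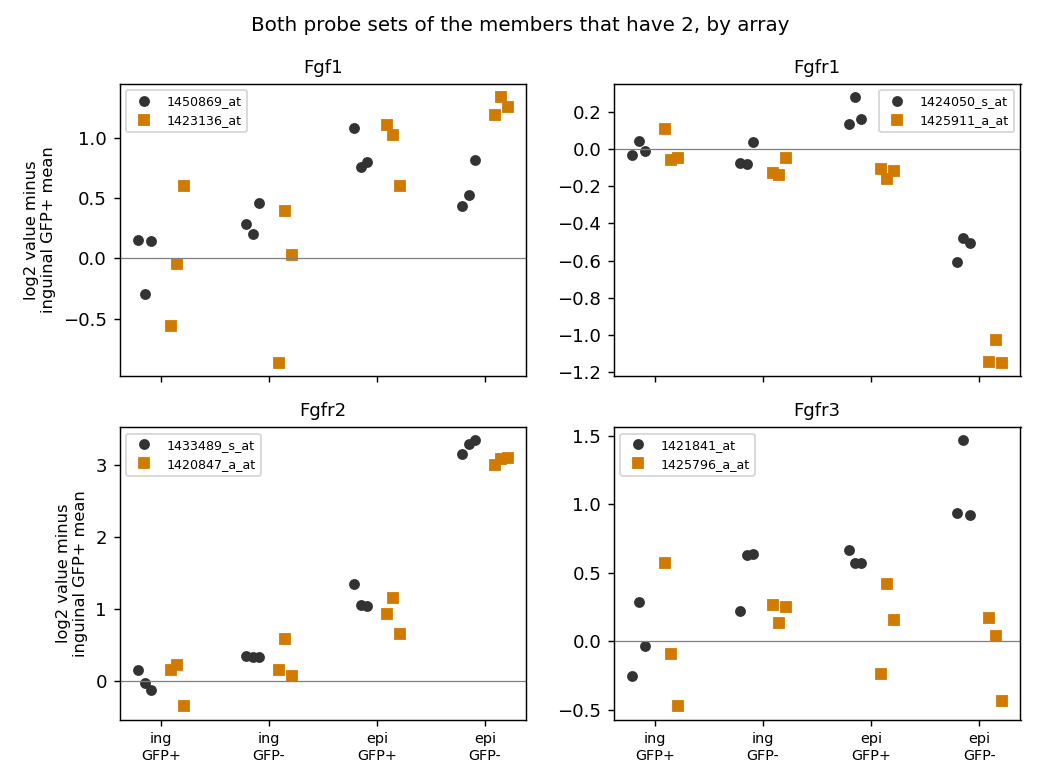
For the 4 genes with 2 probe sets, each array's log2(intensity + 16) is drawn relative to the inguinal GFP+ mean of the same probe set, circles for the brighter and squares for the dimmer. The probe sets of Fgfr2 and of Fgfr1 place epididymal GFP- on the same side, and those of Fgf1 and Fgfr3 part in places.

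Ranked by the group means of each gene's brightest probe set, the orders of the 4 groups differed between the genes. Fgf7 ran from inguinal GFP+ and inguinal GFP-, whose difference did not pass over all arrays though the groups were apart, through epididymal GFP+ to epididymal GFP-. Fgfr2 ran from epididymal GFP- through epididymal GFP+ and inguinal GFP- to inguinal GFP+, each step passing by the brighter probe set and the last of them fragile as described. Fgf2 ran from epididymal GFP- to epididymal GFP+ and inguinal GFP+, whose difference did not pass, and then inguinal GFP-. By its brighter probe set Fgfr1 ran from epididymal GFP+ to inguinal GFP+ and inguinal GFP-, whose difference did not pass, and then epididymal GFP-. Fgf10 was above the floor in no group, so its order is one of values not above background: both epididymal groups read higher than both inguinal groups, with no difference inside either pair that passed. The step from epididymal GFP- to inguinal GFP+, which overlapped, had a limma adjusted p of 0.0355 and was lost with quantile normalization (0.101), a pseudocount of 1 (0.0526), only those groups fitted (0.0541) and no variance trend (0.0535). It was also lost without epididymal GFP- replicate 2 or 3 (both 0.120) or inguinal GFP+ replicate 2 (0.164) or 3 (0.0553). By their brighter probe sets, no neighbouring groups of Fgf1 and Fgfr3 passed, while the dimmer Fgf1 probe set, 1423136_at, passed from epididymal GFP+ to inguinal GFP+ (adjusted p = 0.021), with the losses given above.

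Counted by the brightest probe set, 2 of the 7 genes were called between inguinal GFP+ and GFP- cells, Fgf2 higher and Fgfr2 lower, where 12.2% of all genes were called. The count was 1 with quantile normalization, median centring, a pseudocount of 64, no variance trend or the mean of probe sets, Fgfr2 being the one lost. Between epididymal GFP+ and GFP- cells 4 of 7 were called, Fgf7 and Fgfr1 higher and Fgf2 and Fgfr2 lower, against 41.6% of all genes. The GFP contrast differed between depots for 5 of 7, against 34.3% of all genes, and between inguinal and epididymal fat 6 of 7 were called among GFP+ cells, against 50.6%, and 6 of 7 among GFP- cells, against 53.6%. Across depot and fraction at once, 7 of 7 were called between inguinal GFP+ and epididymal GFP- cells, against 56.4%, and 6 of 7 between inguinal GFP- and epididymal GFP+ cells, against 46.5%. Over the alternatives both counts between depots within a fraction ran from 4 to 6. The counts across depot and fraction ran from 5 to 7 and from 5 to 6. Fgf10, above the floor in no group, was among the genes called in each of these comparisons. With so many genes called throughout, the counts by themselves do not set the 7 genes apart. The median absolute log2 difference of the 7 genes was 0.32 against 0.10 over all genes for the inguinal GFP contrast, 0.62 against 0.20 for the epididymal one, and 0.68 against 0.24 for their difference. It was 0.88 against 0.25 between depots among GFP+ cells and 0.89 against 0.28 among GFP- cells. A median of 7 genes is the value of 1 of them. For the inguinal GFP contrast it was that of Fgf1, which was not called there. Between depots it was that of Fgf1 among GFP+ cells and of Fgf10, above the floor in no group, among GFP- cells. Whether such medians are unusual for 7 genes was not tested. These comparisons share groups and are not independent of each other.

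**Figure D4:**
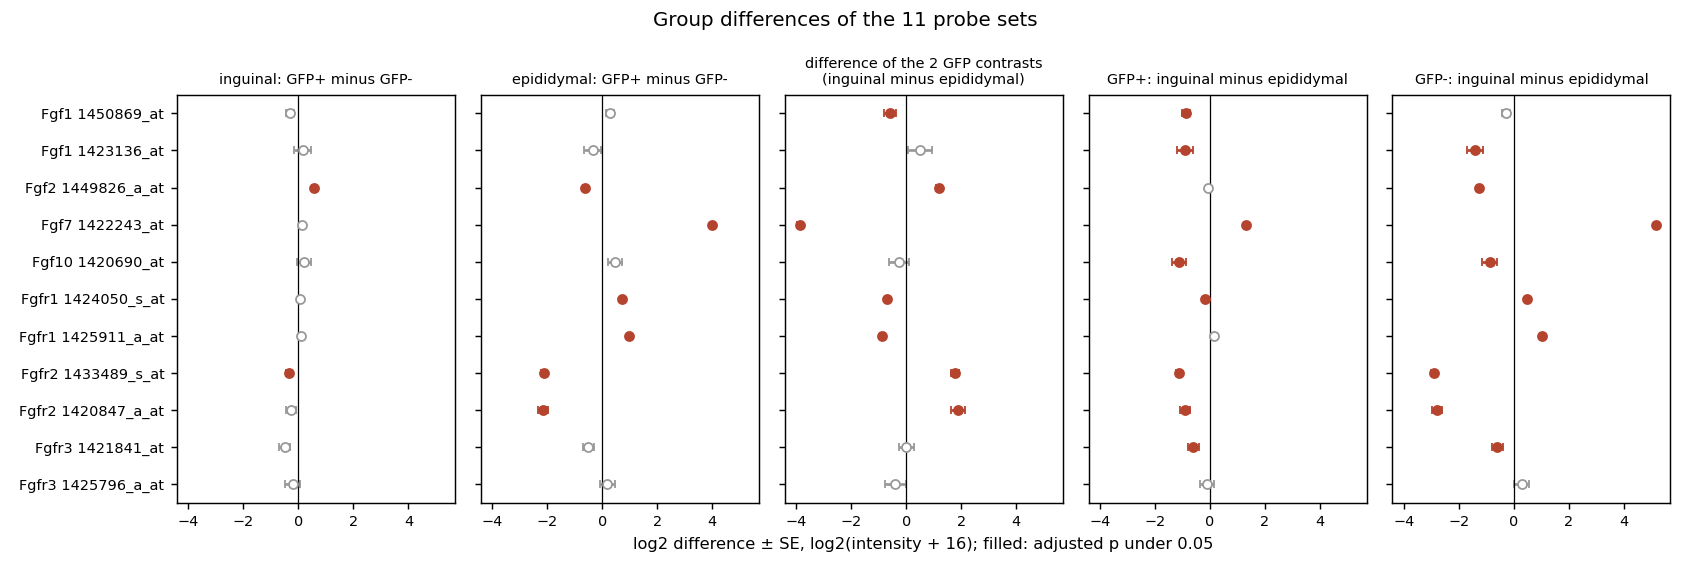
Log2 differences with SE of the 11 probe sets are drawn for 5 comparisons, filled where the limma adjusted p is under 0.05. By the brightest probe sets the inguinal GFP differences lie between -0.50 and 0.58, while in epididymal cells and between depots in GFP- cells Fgf7 and Fgfr2 reach the largest sizes of the 11, with opposite signs.

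The rest of the pathway was read from 6 lists of 103 genes, of which 85 were measured. For comparison, 5.08% of all genes were higher and 7.08% lower in inguinal GFP+ than GFP- cells, and 21.4% and 20.2% in epididymal GFP+ cells. The contrast of GFP was higher in inguinal than epididymal cells for 15.9% and lower for 18.4%. Inguinal cells were higher than epididymal cells for 23.5% and lower for 27.1% among GFP+, and for 27.4% and 26.2% among GFP-. Of the 18 other FGF genes, listed together as other FGF ligands though not all are secreted, 7 were above the floor in a group. Between inguinal GFP+ and GFP- cells 2 were higher and 1 lower, and between epididymal GFP+ and GFP- cells 1 was higher and 1 lower. Fgf21, a hormone-like FGF, was lower in epididymal GFP+ than GFP- cells, at means of 108 and 353 (-1.58 ± 0.13, limma adjusted p = 8.76e-08). Fgf13, a member that stays inside the cell, was higher in inguinal GFP+ cells (means 176 and 70.0, 1.16 ± 0.28, adjusted p = 0.0113), a call lost with a pseudocount of 1 (0.0839), with its probe sets averaged (0.386) and without inguinal GFP- replicate 1 (0.0613). The other called higher there, Fgf15, was above the floor in no group. Fgf9, the 1 lower in inguinal GFP+ cells (means 80.3 and 118, adjusted p = 0.027), lost its call with quantile normalization (0.0552), with only the inguinal groups fitted (0.0735) and without inguinal GFP+ replicate 1 or 2 or any 1 inguinal GFP- array (0.0623 to 0.104). Fgf11, the 1 higher in epididymal GFP+ cells (means 114 and 44.4, adjusted p = 0.00109), lost it with its probe sets averaged (0.17, adjusted p = 0.618). Between depots 3 were higher and 6 lower in inguinal cells among GFP+, and 1 higher and 5 lower among GFP-, where 50.6% and 53.6% of all genes were called in either direction. Of those called among GFP+, Fgf15 (higher) and Fgf6 (lower) were above the floor in no group. The floor was itself higher on epididymal arrays, and the part of that shift in these counts was not tested. Fgf18, a ligand of bone and cartilage growth, was lower in inguinal cells in both fractions (-1.48 ± 0.10, adjusted p = 8.97e-09 among GFP+, and -1.32 ± 0.10, adjusted p = 1.52e-08 among GFP-).

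Of 9 other receptors and co-receptors measured, 5 were above the floor in a group, and Fgfr4, Klb and Kl were not. Cdh2, the N-cadherin that binds Fgfr1, had means of 4038 and 4016 in inguinal GFP+ and GFP- and of 1882 and 4546 in epididymal GFP+ and GFP-. It was lower in epididymal GFP+ cells (-1.27 ± 0.05, limma adjusted p = 2.92e-12), 1 of 2 lower there beside 2 higher. L1cam, an adhesion molecule also said to engage FGF receptors, was the 1 gene lower in inguinal GFP+ cells (means 57.9 and 172, -1.33 ± 0.16, adjusted p = 3.31e-05), and this call was lost with its probe sets averaged (-0.57, adjusted p = 0.124). Fgfrl1, a receptor without a kinase domain, was the 1 gene higher there (0.23 ± 0.06, adjusted p = 0.0294) and was also called in epididymal cells (0.17 ± 0.06, adjusted p = 0.046). The first call was lost without any 1 of the 3 inguinal GFP+ arrays or inguinal GFP- replicate 1 or 2 (0.0504 to 0.127), and the second without any array but epididymal GFP+ replicate 1 (0.0503 to 0.223). The second was also lost with quantile normalization (0.0739), median centring (0.0916), the replicate block (0.0594) and only the epididymal groups fitted (0.091). Glg1, a protein that binds FGFs in the Golgi, was higher in epididymal GFP+ cells (0.25 ± 0.03, adjusted p = 1.33e-05).

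All 20 heparan sulfate genes measured were above the floor in at least 1 group, and most were called in epididymal cells. There 12 were higher and 6 lower in GFP+, with a median of 0.41 against 0.01 over all genes. In inguinal cells 1 was higher and 6 lower, with a median of -0.07 against -0.01. Gpc4, a cell-surface glypican that carries the chains, was higher in epididymal GFP+ than GFP- cells (means 12100 and 5012, 1.27 ± 0.03, limma adjusted p = 9.9e-15). Hs6st1, which adds the 6-O-sulfate that FGF binding uses, was higher in epididymal GFP+ cells (means 5059 and 1904, 1.40 ± 0.05, adjusted p = 4.57e-12) and lower in inguinal GFP+ cells (means 4168 and 6143, -0.56 ± 0.05, adjusted p = 2.89e-06). Sulf2, which removes that sulfate, was lower in epididymal GFP+ cells (means 706 and 2141, -1.58 ± 0.06, adjusted p = 1.25e-11), and so was Agrn, a matrix proteoglycan (means 1575 and 4770, -1.59 ± 0.06, adjusted p = 1.11e-11). The contrasts differed between depots for Hs6st1 by -1.96 ± 0.08 (adjusted p = 1.44e-11) and for Sulf2 by 1.75 ± 0.09 (adjusted p = 4.75e-10). Gpc3, another glypican, had the largest change of the list (means 92.3 and 1306, -3.61 ± 0.22, adjusted p = 1.43e-09) and was picked after its values were seen; it was above the floor on all epididymal GFP- arrays and 2 of 3 epididymal GFP+ arrays, at least 13.6-fold higher in GFP-. The list's interaction count was 6 higher and 13 lower of 20. With median centring the inguinal count was 3 higher and 5 lower, and without inguinal GFP+ replicate 2 it had 2 higher. The epididymal groups also differed in mesothelial marker sums (7386 to 7647 in GFP+ and 38831 to 40939 in GFP-) and endothelial sums (1035 to 1110 and 5403 to 5618). In GFP- cells the endothelial sums came mostly from Kdr and Esam. The part of either list in these differences was not tested.

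Of 16 intracellular signal carriers measured, 6 were higher and 4 lower in epididymal GFP+ cells and 2 were higher and 2 lower in inguinal GFP+ cells. Gab1, a docking protein for PI3 kinase and Shp2, was lower in epididymal GFP+ cells (means 688 and 1517, -1.12 ± 0.06, limma adjusted p = 7.71e-10). Pik3r1, the regulatory subunit of PI3 kinase, was higher there (means 948 and 475, 0.97 ± 0.06, adjusted p = 4.35e-09). Map2k1, the kinase that activates ERK, was higher by 0.32 ± 0.03 (adjusted p = 4.1e-08), and the adaptor Grb2 by 0.29 ± 0.04 (adjusted p = 8.41e-06). Without epididymal GFP+ replicate 3, 2 in place of 4 were lower there. The inguinal counts ran from 0 to 3 higher and from 1 to 2 lower over the alternatives. In inguinal cells Sos2, an exchange factor that loads Ras, lost its call (-0.25 ± 0.07, adjusted p = 0.0349) without inguinal GFP+ replicate 1 or 3 or any 1 inguinal GFP- array (0.0742 to 0.148). It also lost it with median centring (0.0734), no variance trend (0.104) and only the inguinal groups fitted (0.0792). Pik3r1 in inguinal cells (0.25 ± 0.06, adjusted p = 0.0179) lost its call without inguinal GFP+ replicate 3 (0.0963) or inguinal GFP- replicate 2 (0.0584) or 3 (0.0716). The same held with its probe sets averaged (0.18, adjusted p = 0.19).

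Of 16 feedback inhibitors and target genes measured, 3 were higher and 8 lower in epididymal GFP+ than GFP- cells, with a median of -0.27 against 0.01 over all genes, and 1 was higher and 2 lower in inguinal GFP+ cells. Of those 2, Spred2, an inhibitor of Raf activation, lost its call without inguinal GFP+ replicate 3 (0.0725) or inguinal GFP- replicate 1 (0.0647) or 2 (0.0502). With its probe sets averaged the call was also lost (0.052, adjusted p = 0.796). Dusp6, the phosphatase that switches off ERK, was lower in GFP+ cells of both depots, at means of 1469 and 4220 in epididymal (-1.51 ± 0.10, limma adjusted p = 2.96e-09) and 530 and 822 in inguinal cells (-0.64 ± 0.10, adjusted p = 0.000357). The Sprouty genes, inhibitors of receptor tyrosine kinase signals, moved separately: Spry1 was higher in epididymal GFP+ cells (means 1972 and 1291, 0.61 ± 0.05, adjusted p = 6.99e-08) and Spry2 in inguinal GFP+ cells (means 2989 and 1530, 0.96 ± 0.08, adjusted p = 3.89e-07). The immediate early genes Fos and Egr1 were lower in epididymal GFP+ cells, at -0.71 ± 0.06 (adjusted p = 1.44e-07) and -0.61 ± 0.06 (adjusted p = 1.98e-07). Between depots, inguinal cells had 5 higher and 7 lower among GFP+ and 5 higher and 9 lower among GFP-. Ccnd1, the cyclin that growth factors raise, was higher in inguinal cells by 4.01 ± 0.13 among GFP+ (means 5873 and 344, adjusted p = 1.73e-12) and 2.88 ± 0.13 among GFP- (means 6089 and 821, adjusted p = 2.37e-11). Dusp6 was lower in inguinal GFP- than epididymal GFP- cells (-2.34 ± 0.10, adjusted p = 8.94e-12). The epididymal GFP- group, highest for Dusp6, Fos and Egr1, was the group with the highest mesothelial and endothelial marker sums, the latter mostly from Kdr and Esam. The part of these sums in these results was not tested.

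Fgfr2 is made in an epithelial and a mesenchymal splice form, and 6 regulators of that choice were measured. Esrp1, which drives the epithelial form, was above the floor in no group, with group means of 7.24 to 21.8. Esrp2, its paralogue, was above the floor in all 4 groups, at means of 250.2, 234 and 334 in inguinal GFP+, inguinal GFP- and epididymal GFP+ and 407 in epididymal GFP- cells. It was lower in epididymal GFP+ than GFP- cells (-0.28 ± 0.09, limma adjusted p = 0.0251) and lower in inguinal than epididymal GFP- cells (-0.76 ± 0.09, adjusted p = 3.72e-06). The first value was picked outside the rule for naming genes and was not run under the alternatives. With its probe sets averaged, Esrp2 lost its call between depots in GFP+ cells (-0.13, adjusted p = 0.26) and its interaction call (0.32, adjusted p = 0.0806). The interaction call was also lost without any 1 of 8 arrays. Mbnl1, a splicing factor of many exons, was lower in inguinal GFP+ cells (-0.27 ± 0.03, limma adjusted p = 4.48e-06) and higher in epididymal GFP+ cells (0.40 ± 0.03, adjusted p = 4.3e-09). Rbfox2 was higher in epididymal GFP+ cells by 0.51 ± 0.05 (adjusted p = 8.72e-07), a call lost with its probe sets averaged (0.12, adjusted p = 0.224). In all, 2 were higher and 3 lower in epididymal GFP+ cells and 0 higher and 1 lower in inguinal GFP+ cells.

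**Figure D5:**
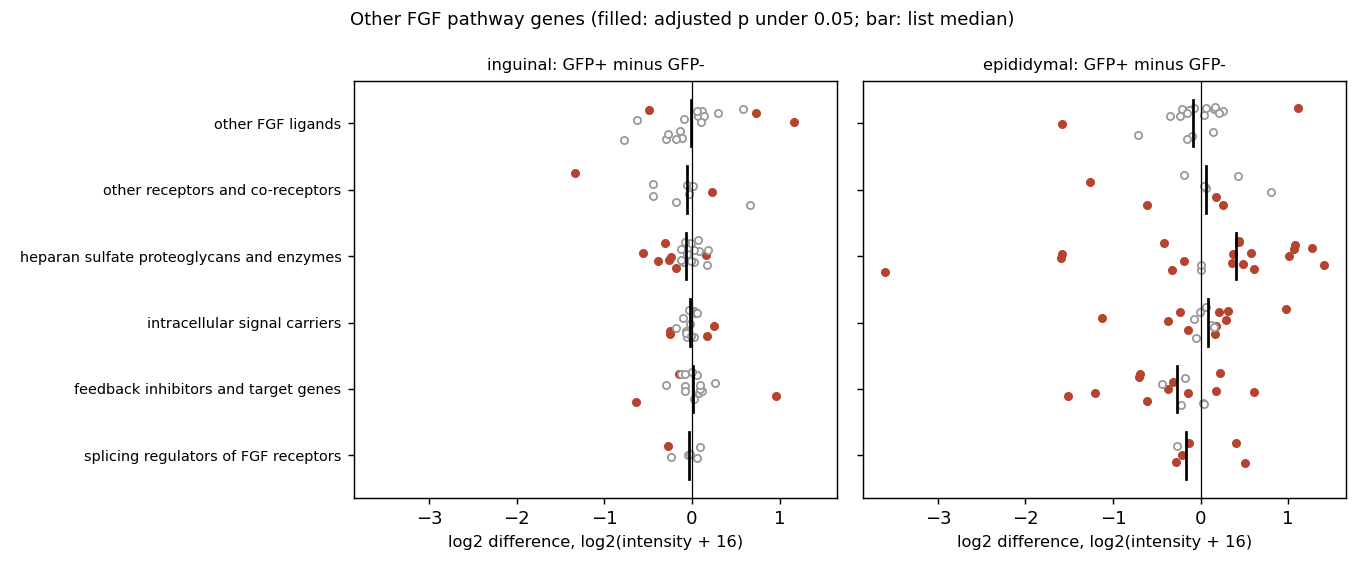
Log2 differences between GFP+ and GFP- cells are drawn for the measured genes of the 6 lists in inguinal (left) and epididymal (right) cells, 1 point a gene, filled where the limma adjusted p is under 0.05, with a black bar at the list median. The points spread more widely in epididymal cells, where the heparan sulfate median is 0.41 and the feedback and target median -0.27.

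For each of the 6 genes above the floor in their brightest group, the genes whose log2 values correlated best with it over the 12 arrays were found among 8797 or 8798 genes outside the lowest 30% of means. The arrays fall into 4 groups, so a high correlation mostly says that the group means line up. For Fgf7 they were Oaf (Pearson r = 0.9996), Emp1 (0.9987) and Vmp1 (0.9984), and Oaf had means of 6449 and 6108 in inguinal GFP+ and GFP- cells and of 4022 and 1088 in epididymal GFP+ and GFP- cells. For Fgfr2 they were Lrrc1 (0.9961), Angptl7 (0.9957) and Cyp26a1 (0.9957), and Angptl7 had means of 36.1, 49.3, 205 and 2551 in that order. For Fgf2 they were Arhgap18 (0.9884), Stat5b (0.9755) and Gja1 (0.9749). For Fgfr1 they were Sumf1 (0.9878), Cd320 (0.9857) and Rarb (0.9844), the last with means of 467, 399, 972 and 73.6. Those of the dimmer genes were lower, at 0.9635 to 0.9495 for Fcho1, Gli2 and Elf4 with Fgf1 and 0.9521 to 0.933 for Ubn1, Mto1 and Vps54 with Fgfr3. Leaving out any 1 array kept r at 0.9994 or more for Oaf with Fgf7 and at 0.887 or more for Vps54 with Fgfr3.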

How the data were processed

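Per the labels' protocols, Trizol and RNeasy RNA was copied from an oligo-dT primer, labelled with biotin as cRNA and put on Affymetrix arrays. The value table deposited by the authors holds linear intensity for 22626 probe sets. How those signals were computed, corrected and scaled is not given in the sources used here. Scanner files were not used. Of the probe sets, 20380 had 1 symbol in the platform annotation and were tested, 691 had several and 1555 none. For 29 symbols no current Entrez entry was found, and the old name stands. Values were taken as log2(intensity + 16) with no further normalization. All 12 arrays were fitted by group with limma 3.58.1 in R 4.3.3 (lmFit, eBayes with a trend), adjusted by Benjamini-Hochberg over 20380 probe sets and called at 0.05. A gene's probe set with the highest mean stood for it. The fit was tested on simulated data. Named genes were Zfp423, all 11 probe sets, up to 4 called genes per list and comparison with the smallest adjusted p whose brightest group was above the floor (43 pathway genes), of which the text names part, and the 3 genes most correlated with each gene above the floor. Genes listed at or under the floor are named where a list's count is described. The genes, lists and rules were chosen with earlier results of these data known. The alternatives tried were blocking on replicate number, quantile normalization or median centring, a pseudocount of 1 or 64, dropping weak probe sets or the variance trend, fitting only the groups compared, taking a gene's brightest probe set alone or the mean over its probe sets, and leaving out each array. The number of arrays limits the precision.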

Additional observations from a re-analysis of the deposited data

Results flagged for a closer look

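For 4 of the genes the GFP difference was not the same in both depots by limma's interaction test, which fits the inguinal contrast minus the epididymal one. It was -3.88 on the log2 scale for Fgf7, 1.20 for Fgf2, -0.68 and -0.87 for the probe sets of Fgfr1, and 1.78 and 1.88 for those of Fgfr2. Fgf1 passed by its brighter probe set alone, at -0.60, with the reservations given for it. Groups of 3 arrays were not screened for single outlying arrays.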

How the results depend on the processing

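Of 77 values of the 11 probe sets, 52 kept their sign and their side of the threshold under every alternative run and 25 did not. The count of genes called between inguinal GFP+ and GFP- cells was 1 in place of 2 under the replicate block, quantile normalization, median centring, a pseudocount of 64, no variance trend and the mean of probe sets, and 1 to 2 with 1 array left out. Same-numbered replicates did not deviate together (correlations from -0.051 to 0.044, with 0 of 12 over 0.1), so the numbers were not taken as pairs. Of the 77 values the block changed the inguinal Fgfr2 (adjusted p = 0.0535) and epididymal Fgfr3 (0.0466) calls, with 2190 probe sets called in place of 2231 and 7988 in place of 8044 in the GFP contrasts.

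With fewer features tested (12393), fewer passed. In the order inguinal GFP, epididymal GFP, their difference, GFP+ between depots, GFP- between depots, inguinal GFP+ against epididymal GFP-, and inguinal GFP- against epididymal GFP+, the counts were 2231, 8044, 6457, 9822, 10415, 10995 and 9049 probe sets. The mean of probe sets gave 1339, 4820, 3867, 5794, 6174, 6470 and 5387. One probe set per gene gave 5187, 6292, 6656, 7014 and 5810 for the second and the last 4. Median centring turned the split of 911 higher and 1320 lower in the first to 1373 and 987, of 3013 and 3444 in the third to 3847 and 2748, and of 4647 and 5175 in the fourth to 5879 and 4116.

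Signs turned only for values that did not pass, apart from Rbfox2 and Spred2. The mean of probe sets gave -0.034 for Fgf1 in epididymal cells, -0.20 for the Fgfr3 interaction (-0.061 with a pseudocount of 1), 0.082 for Rbfox2 between depots in GFP+ cells and 0.052 for Spred2 in inguinal cells. Quantile normalization gave 0.062 for Fgfr3 1421841_at between inguinal GFP- and epididymal GFP+ and 0.022 for 1425796_a_at between depots in GFP+ cells. With 1 array left out, the inguinal difference ran from -0.21 to 0.43 for Fgf1 1423136_at, -0.021 to 0.42 for Fgf10 and -0.50 to 0.025 for Fgfr3 1425796_a_at. That probe set also ran from -0.40 to 0.13 between depots in GFP+ cells, -0.21 to 0.32 between inguinal GFP+ and epididymal GFP-, and -0.072 to 0.25 between inguinal GFP- and epididymal GFP+. In the last comparison Fgfr1 1425911_a_at ran from -0.0037 to 0.042 and Fgfr3 1421841_at from -0.18 to 0.030, and the latter's interaction from -0.17 to 0.13. The interaction needs all groups, so the fit of only the groups compared gave none, and leaving out weak probe sets gave no value for Fgf10 and Fgfr3. Of 109 other values 29 changed side or sign under some alternative. Low signal limits Fgf10 and Fgfr3, which lay around the floor.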
